A study of Rattus norvegicus with 18 samples.

Results

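The 29 genes described here are those read far more in detrusor than in mucosa of the uninjured rat bladder. They were chosen by the measured values of the Control libraries. A gene was a member when its mean over the 3 Control detrusor libraries was above 50 CPM (a gene's share of the reads counted in a library, in parts per 1000000) and when that mean plus 0.5 CPM was more than 16 times its mean over the 3 Control mucosa libraries plus 0.5 CPM. Of 32754 genes counted, 3370 were above 50 CPM in Control detrusor and 30 passed both thresholds. The choice leaves out 4 identifiers by name, 1 of which had passed, so 29 genes remained. All 29 were among the 15740 genes tested below, which exceeded 1 CPM in 3 or more of 18 libraries.

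The rats were wild-type male Sprague Dawley animals, 6 to 7 weeks old. Injured rats had a complete transection of the spinal cord at thoracic level T8 and then received daily intraperitoneal inosine, a purine nucleoside, at 225 mg/kg (SCI-inosine) or the sodium bicarbonate vehicle (SCI-vehicle) for 8 weeks, and rats with no injury and no treatment served as Control. Each bladder was dissected into detrusor and mucosa, the urothelium with the lamina propria beneath it, and each of the 6 groups gave 3 libraries of total RNA depleted of ribosomal RNA. The labels do not say whether a detrusor and a mucosa library with the same number came from the same rat. The p-values measure the spread between these samples. Those of comparisons between tissues treat all libraries as separate and do not allow for a pairing by rat.

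The detrusor is the smooth muscle coat of the bladder wall. It relaxes while urine is stored and contracts in response to parasympathetic nerves when the bladder empties, and its cells are rich in contractile and cytoskeletal proteins. After injury above the sacral cord the detrusor contracts without voluntary control and against a closed outlet, and the muscle thickens.

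The deposited table lists genes by Ensembl rat identifier and does not pair the identifiers with names. The roles of the members, the marker genes of muscle, urothelium, nerve or blood, and any overlap with near-identical or antisense genes were therefore not looked up, and the dissected tissues were not checked against defining markers. Members are called by their rank in mean CPM in Control detrusor, from 1 to 29, and 3 of them also by identifier. A rank orders the share of reads, which also grows with transcript length, and not the number of transcripts.

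Total counts ranged from 3255012 to 6810496 per library (median 5030414), and no 2 libraries held identical counts. The detrusor library of SCI-inosine replicate 2 had counts on 14126 genes, against 16475 to 17842 in the other 8 detrusor libraries. A share of mucosa in each detrusor library was read from 511 genes enriched over 4-fold in the mucosa of Control rats, as the median distance from the Control detrusor level toward the Control mucosa level. The 3 Control libraries had -1.97%, 0.122% and 1.25%, the SCI-vehicle libraries 21.5%, 1.90% and 1.22% and the SCI-inosine libraries 3.14%, 9.56% and 8.11%. The SCI-vehicle replicate 1 library thus stood apart from the others on this measure, and comparisons within detrusor that use it are given with and without it. Whether the measure reflects mucosa in the sample or changed levels of these genes in injured detrusor was not tested. As a covariate, the measure could therefore also take up part of a difference from Control.

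In Control detrusor, the members ran from 10409 ± 2662 CPM (SD, n = 3) for the member ranked 1 to 52.7 ± 2.31 CPM for the member ranked 29. These values chose the members and carry no test. The 10 highest members had mean levels of 10409, 6218, 4468, 2515, 2501, 625, 437, 390, 371 and 349 CPM. The gap between the fifth and the sixth separates 5 very abundant members from the other 24, a split made after the values were seen. The 5 held between 82.0% and 89.5% of the members' summed reads in each of the 18 libraries.

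In Control mucosa the same 10 members had mean levels of 626, 370, 266, 135, 99.0, 37.8, 13.2, 11.3, 17.3 and 18.2 CPM. The ratio used for the choice was highest for the member ranked 28, at 65.7, which had 34.5, 65.7 and 135 CPM in Control detrusor and 1.07, 0.355 and 0.670 CPM in Control mucosa. Next came the members ranked 18 (49.1), 8 (32.95), 7 (31.99) and 26 (30.02). The other 24 lay between 16.0 and 25.2. Just inside the fold threshold were the members ranked 17 (16.02) and 6 (16.36), and just outside were 2 genes at 15.93 and 15.31. Just inside the level threshold were the members ranked 29 and 28 (52.7 and 78.2 CPM), and just outside were 2 genes at 49.2 and 44.7 CPM.

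**Figure D1:**
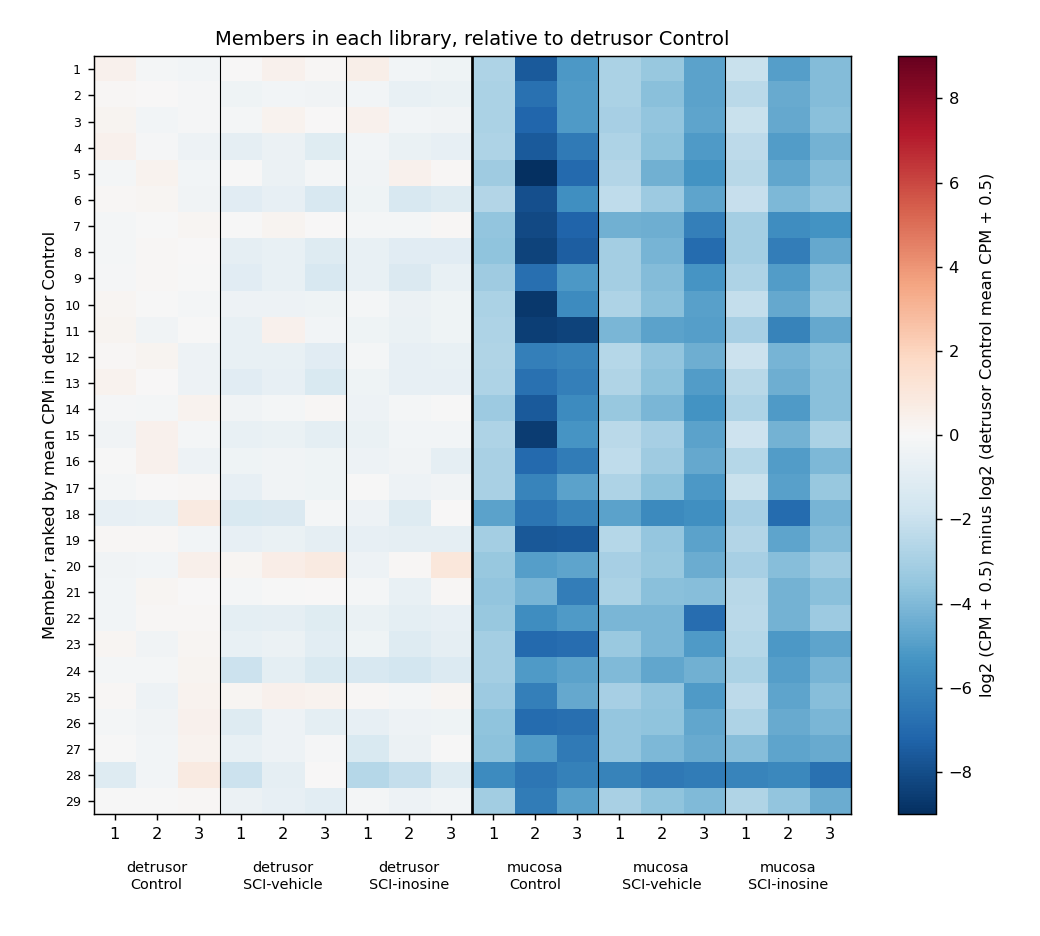
Each row is a member, ordered by mean CPM in detrusor Control, and each column a library, grouped by tissue and treatment with the replicate number beneath; color gives log2 (CPM + 0.5) minus log2 of the detrusor Control mean + 0.5. The 9 detrusor libraries are near 0 or pale blue, whereas in mucosa replicate 1 is the palest column of each group and Control replicate 2 holds the darkest cells.

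The first question was whether the members stayed detrusor genes in injured bladders, in libraries that had no part in choosing them. They did. In all 29 members, every one of the 6 injured detrusor libraries was above every one of the 6 injured mucosa libraries. The share of all genes tested with this separation was not counted. In edgeR's quasi-likelihood test, 29 of 29 members were higher in SCI-vehicle detrusor than in SCI-vehicle mucosa at an adjusted p under 0.05, where 21.7% of all genes tested were called higher in detrusor. The median log2 difference of the members was 3.84, beside -0.16 for all genes tested. In SCI-inosine 29 of 29 were higher, where 19.9% of all genes were called higher, with a median log2 difference of 3.45 beside -0.11.

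The size of that difference varied among the members. In SCI-vehicle the log2 difference ran from 2.61 (SE 0.87, adjusted p = 0.0211) for the member ranked 6 to 6.95 (SE 0.78, adjusted p = 5.35e-06) for the member ranked 28. In SCI-inosine the same 2 members stood at the ends, at 2.48 (SE 0.86) and 5.46 (SE 0.81). The member ranked 6 had 307, 374 and 234 CPM in SCI-vehicle detrusor and 126, 65.4 and 23.2 CPM in SCI-vehicle mucosa. The member ranked 28 had 19.7, 44.0 and 80.8 CPM in SCI-vehicle detrusor and 0.719, 0.402 and 0.528 CPM in SCI-vehicle mucosa, the last 3 values resting on 3 counts or fewer each.

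The summed level of the members in detrusor overlapped between the 3 groups. It was 35755, 29741 and 27832 CPM in the Control libraries, 26374, 31697 and 27666 CPM in SCI-vehicle and 33465, 24467 and 23702 CPM in SCI-inosine. Members therefore held 2.37% to 3.58% of all detrusor reads, in injured and uninjured rats. The sum follows its 5 most abundant members, which together had 26111 ± 4222 CPM in Control rats, 25078 ± 2406 CPM after injury with vehicle and 23701 ± 5275 CPM after injury with inosine (SD, n = 3 in each group). The sum of the other 24 members was 4882, 5107 and 5007 CPM in Control rats, 3192, 3913 and 3398 CPM in SCI-vehicle and 3724, 3098 and 3708 CPM in SCI-inosine. Every injured library was below every Control library for this sum, and the 2 injured groups overlapped. The members were chosen by high values in these Control libraries, which favors lower sums after injury. The part of that choice was not tested. The difference between the 5 and the 24 was not tested, and single members of both kinds are given below.

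**Figure D2:**
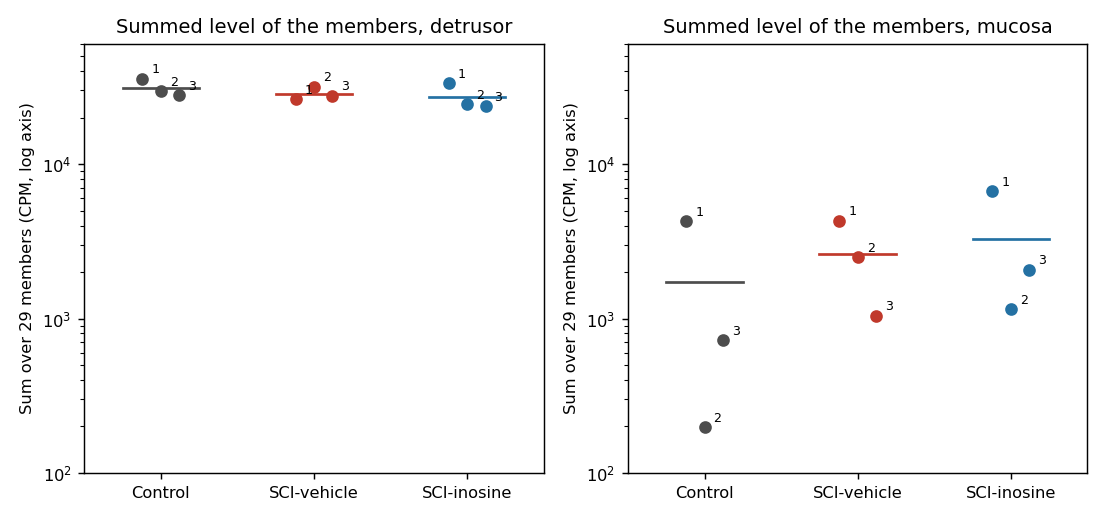
Points are the CPM summed over the 29 members in each library, numbered by replicate, and lines are group means; both log axes have the same range. Detrusor groups overlap between 23702 and 35755 CPM, whereas mucosa libraries spread from 198 to 6663 CPM, with replicate 1 the highest in each group.

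Injury was compared with Control in detrusor member by member. Both comparisons use the same 3 Control libraries, and these are also the libraries whose high values chose the members. The part of that choice in the falls below was not tested. In bulk tissue, fewer muscle cells and less RNA per cell cannot be told apart.

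After injury with vehicle, 1 of 29 members passed the test in detrusor. ENSRNOG00000054314, ranked 22, had 100, 124 and 128 CPM in Control rats, 63.9, 68.0 and 54.4 CPM in SCI-vehicle and 76.2, 62.8 and 71.7 CPM in SCI-inosine. All 6 injured libraries were below the 3 Control libraries. It fell by 0.97 on the log2 scale in SCI-vehicle (SE 0.15, adjusted p = 0.0479, edgeR), where 0.0318% of all genes tested were called lower. DESeq2 called 12 of 29 members lower, where it called 1.01% of all genes lower. All genes, unlike the members, were not chosen by high values in these Control libraries. The edgeR call was lost without any one of the 3 Control or the 3 SCI-vehicle libraries or without SCI-inosine replicate 3, while the log2 fold change of ENSRNOG00000054314 stayed between -1.07 and -0.90 over all alternatives.

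Below that threshold most members leaned the same way. The fitted log2 fold change in SCI-vehicle was below 0 for 24 of 29 members, with a median of -0.69 beside 0.01 for all genes tested. At an unadjusted p under 0.05, 15 members were lower, where 5.42% of all genes were, and 0 members were higher, where 7.55% of all genes were. Unlike all genes, the members were chosen by high values in these Control libraries, which favors lower values after injury. In 16 members every SCI-vehicle library was below every Control library, against 7.99% of all genes tested. Without the SCI-vehicle replicate 1 library, the one with a mucosa share of 21.5%, the median was -0.45 and 14 members had an unadjusted p under 0.05, where 9.89% of all genes did. With the mucosa share of each library as a covariate, the median was -0.40, 13 members had an unadjusted p under 0.05, where 7.97% of all genes did, and 0 passed the adjusted threshold.

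The members with the most negative values in SCI-vehicle were those ranked 24, 6 and 13. ENSRNOG00000013658, ranked 24, had 80.8, 80.8 and 106 CPM in Control rats, 23.4, 47.6 and 34.4 CPM in SCI-vehicle and 33.0, 27.5 and 37.5 CPM in SCI-inosine. All 6 injured libraries were below the 3 Control libraries while the 2 injured groups overlapped, and its log2 fold change in SCI-vehicle was -1.37 (SE 0.25), with an adjusted p of 0.0674 in edgeR that did not pass. The member ranked 6 had 676, 710 and 490 CPM in Control against 307, 374 and 234 CPM in SCI-vehicle, a log2 fold change of -1.09 (SE 0.30, adjusted p = 0.202). The member ranked 13 had 335, 279 and 202 CPM in Control against 131, 163 and 107 CPM in SCI-vehicle, also -1.09 (SE 0.23, adjusted p = 0.132). In both, each SCI-vehicle library was below each Control library.

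The members with the most positive values were those ranked 20, 25 and 1, and none of them passed. ENSRNOG00000003510, ranked 20, had 106, 114 and 181 CPM in Control rats, 153, 204 and 233 CPM in SCI-vehicle and 96.5, 145 and 271 CPM in SCI-inosine. Its groups overlapped, and its log2 fold change in SCI-vehicle was 0.53 (SE 0.33, adjusted p = 0.534). The members ranked 25 and 1 stood at 0.24 (SE 0.20) and 0.12 (SE 0.32). For the member ranked 1, with 13479, 9012 and 8736 CPM in Control against 10603, 13392 and 11268 CPM in SCI-vehicle, the interval of the log2 fold change was -0.58 to 0.81.

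Among the 10 highest members, those ranked 1, 3 and 7 had log2 fold changes of 0.12, 0.02 and 0.05 in SCI-vehicle. The narrowest of their 95% intervals, that of the member ranked 7, ran from -0.30 to 0.40. Those ranked 2 and 5 stood at -0.35 (SE 0.20) and -0.29 (SE 0.22). Those ranked 4, 6, 8, 9 and 10 stood at -0.88, -1.09, -0.91, -1.05 and -0.50. These 5 all had an unadjusted p under 0.05 and an adjusted p between 0.0691 and 0.269. The members of highest abundance thus include both ones near 0 and ones at about -1.

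**Figure D3:**
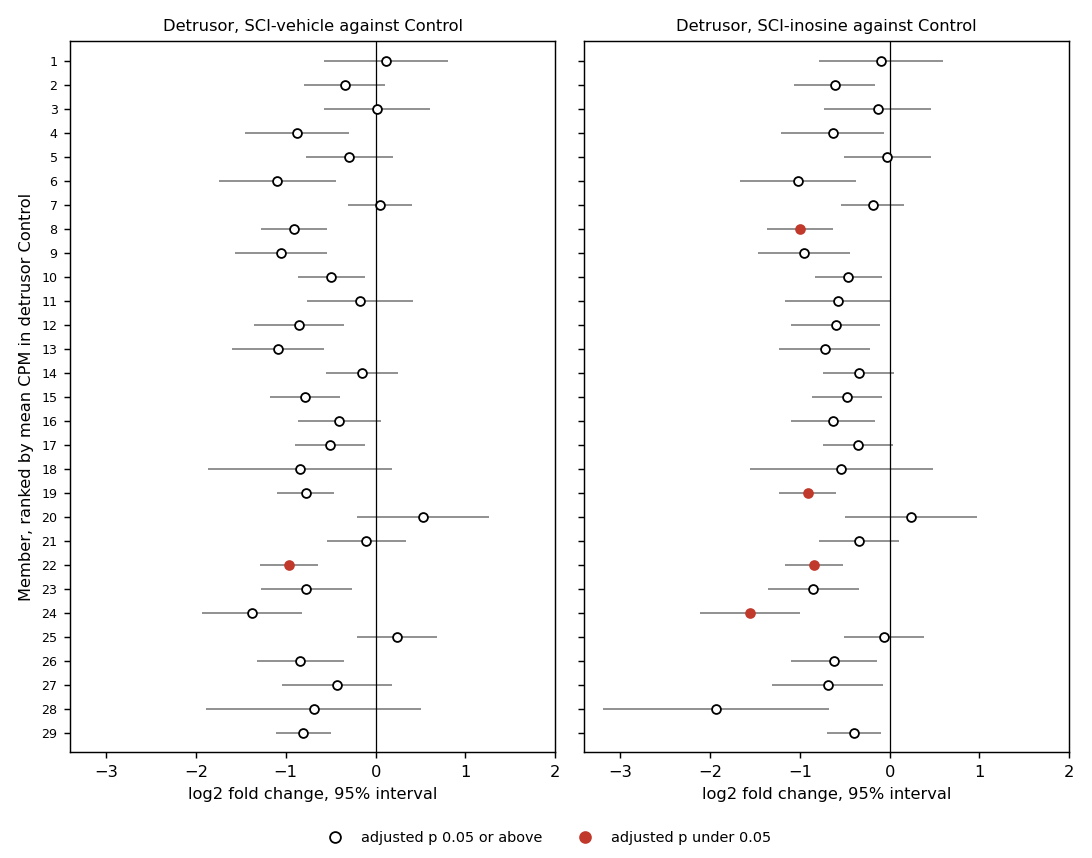
Log2 fold change in detrusor of SCI-vehicle (left) and SCI-inosine (right) against the same Control libraries, by member rank, with 95% intervals from the edgeR fit; filled points have an adjusted p under 0.05 over all genes tested. Most points lie left of 0, with 1 filled point on the left (rank 22) and 4 on the right (ranks 8, 19, 22 and 24).

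In SCI-inosine detrusor, 4 of 29 members fell against Control, where 0.102% of all genes tested were called lower (edgeR). DESeq2 called 8 members lower, where it called 0.859% of all genes lower. Only the members were chosen by high values in these Control libraries, so the shares of all genes are not a like reference. ENSRNOG00000013658, ranked 24 and described above, fell by 1.56 on the log2 scale (SE 0.25, adjusted p = 0.0389, edgeR). ENSRNOG00000054314, ranked 22, fell by 0.84 (SE 0.15, adjusted p = 0.0440). The member ranked 8 had 350, 423 and 395 CPM in Control and 240, 193 and 196 CPM in SCI-inosine, a fall of 1.00 (SE 0.17, adjusted p = 0.0439). The member ranked 19 had 143, 145 and 114 CPM in Control and 80.6, 75.1 and 75.4 CPM in SCI-inosine, a fall of 0.91 (SE 0.15, adjusted p = 0.0389).

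In each of the 4, all SCI-inosine libraries were below all Control libraries. All 4 edgeR calls were lost without any one of Control replicates 1 and 2, SCI-vehicle replicate 3 or SCI-inosine replicates 2 and 3, some were lost without Control replicate 3 or SCI-vehicle replicates 1 or 2, and no call was lost without SCI-inosine replicate 1. With the mucosa share as a covariate 0 members were called, 13 had an unadjusted p under 0.05, where 8.59% of all genes did, and the median log2 fold change of the members was -0.46.

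Over all 29 members the SCI-inosine values against Control lay from -1.93 to 0.24, with a median of -0.60 beside -0.01 for all genes tested, and 28 were below 0. In an alternative fit scaled by column totals, 4 members were above 0, and the median was -0.49 beside 0.10 for all genes. In the main fit, 18 members were lower at an unadjusted p under 0.05, where 5.85% of all genes were. In the same fit 0 were higher, where 7.78% of all genes were. Here too only the members, and not all genes, were chosen by high values in the Control libraries. In 11 members every SCI-inosine library was below every Control library, against 5.95% of all genes. The lowest value belonged to the member ranked 28, with 13.1, 17.5 and 35.5 CPM in SCI-inosine, at -1.93 (SE 0.57). Its Control libraries spread from 34.5 to 135 CPM, its groups overlapped by 1 library, and its adjusted p of 0.209 did not pass. After the members ranked 28 and 24 came the member ranked 6 at -1.02 (SE 0.29, adjusted p = 0.203).

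At the upper end were the members ranked 20, 5 and 25, at 0.24 (SE 0.33), -0.02 (SE 0.22) and -0.06 (SE 0.20). In the 2 comparisons with Control, 24 members had a value below 0 in both and 1, ENSRNOG00000003510, above 0 in both. Since the comparisons share their Control libraries, this is a description of the values and not evidence from separate samples.

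The effect of inosine itself was read from SCI-inosine against SCI-vehicle, 2 groups that did not choose the members. In detrusor 0 of 29 members passed, where 0% of all genes tested were called (edgeR). DESeq2 also called 0 members. At an unadjusted p under 0.05 there was 1 member, where 4.38% of all genes were below that p. Fitted values were above 0 for 13 members and below 0 for 16, with a median of -0.09 beside -0.03 for all genes tested. Without SCI-vehicle replicate 1 the median was -0.13, with 11 members above 0 and 3 at an unadjusted p under 0.05, where 4.58% of all genes were. Leaving out each of the 9 libraries in turn gave 1 to 4 members below that p, with 4 of 29 without SCI-inosine replicate 3, where 5.04% of all genes were, and 9 to 17 members above 0. The 95% intervals reached a median of 0.49 to either side, and in 26 of 29 members the whole interval lay within 1 of 0. For these 26, differences of 2-fold or more between inosine and vehicle lay outside the interval, whereas smaller differences were not resolved.

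The largest values for inosine against vehicle in detrusor belonged to the members ranked 29, 13 and 15 on the upper side. The member ranked 29 had 35.6, 31.0 and 27.7 CPM in SCI-vehicle and 45.7, 38.8 and 44.9 CPM in SCI-inosine, a log2 fold change of 0.41 (SE 0.14, unadjusted p = 0.0126, adjusted p = 0.952, edgeR). Both it and the member ranked 15 had every SCI-inosine library above every SCI-vehicle library, 2 of 29 members, against 5.59% of all genes tested. The members ranked 13 and 15 stood at 0.36 (SE 0.23) and 0.30 (SE 0.18). On the lower side were the members ranked 28, 11 and 25, at -1.24 (SE 0.57), -0.41 (SE 0.27) and -0.30 (SE 0.20). For the member ranked 28 the interval ran from -2.49 to 0.00, and its SCI-vehicle and SCI-inosine libraries overlapped.

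**Figure D4:**
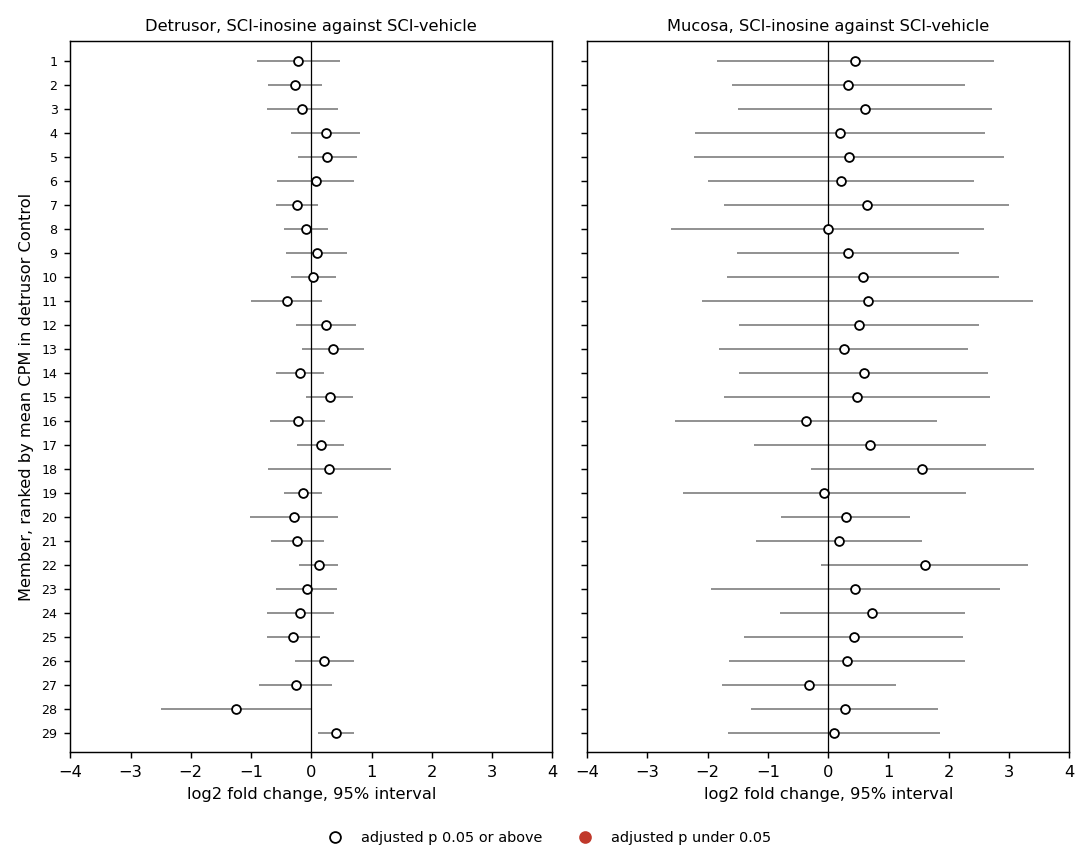
Log2 fold change of SCI-inosine against SCI-vehicle in detrusor (left) and mucosa (right), by member rank, with 95% intervals from the edgeR fits. No point is filled; the intervals reach a median of 0.49 to either side in detrusor and 2.06 in mucosa.

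The mucosa libraries differed among themselves far more than the detrusor libraries did. The summed level of the members was 4250, 198 and 726 CPM in Control mucosa, 4291, 2501 and 1040 CPM in SCI-vehicle mucosa and 6663, 1145 and 2072 CPM in SCI-inosine mucosa. The highest Control library was 21.5 times the lowest, and the 3 groups overlapped. Across members, the coefficient of variation had a median of 133%, 62.9% and 76.2% in the 3 mucosa groups, against 18.9%, 16.5% and 15.4% in the 3 detrusor groups.

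The spread ran through nearly all members together. Replicate 1 was the highest library of its mucosa group for 29 of 29 members in Control and in SCI-vehicle and for 28 in SCI-inosine. Over the 9 mucosa libraries, SCI-inosine replicate 1 was the highest for 22 members and Control replicate 2 the lowest for 24. The Pearson correlation of each member with the sum of the other 28, on the log2 scale over these 9 libraries, had a median of 0.962 and was above 0.9 for 23 members. The lowest, 0.414, was that of the member ranked 28, which is read at about 1 CPM or less in each mucosa library. In the 9 detrusor libraries the same correlation had a median of 0.430, exceeded 0.9 for 0 members and was negative for 8, with the lowest, -0.686, for the member ranked 5. Libraries of different groups and depths enter both correlations, which are given as descriptions.

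As a percent of its mean in detrusor of the same treatment, the median member stood at 11.3%, 0.522% and 1.44% in the 3 Control mucosa libraries, at 15.6%, 8.98% and 4.41% in SCI-vehicle and at 25.1%, 4.63% and 8.19% in SCI-inosine. Genes outside the membership moved alongside. For 186 other genes that were 4- to 16-fold higher in Control detrusor, the median percent was 21.1%, 9.24% and 12.4% in Control, 28.1%, 18.7% and 14.7% in SCI-vehicle and 33.4%, 16.2% and 21.2% in SCI-inosine, in the same order within each group. These genes are not known by name, and no marker of muscle was set beside them.

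**Figure D5:**
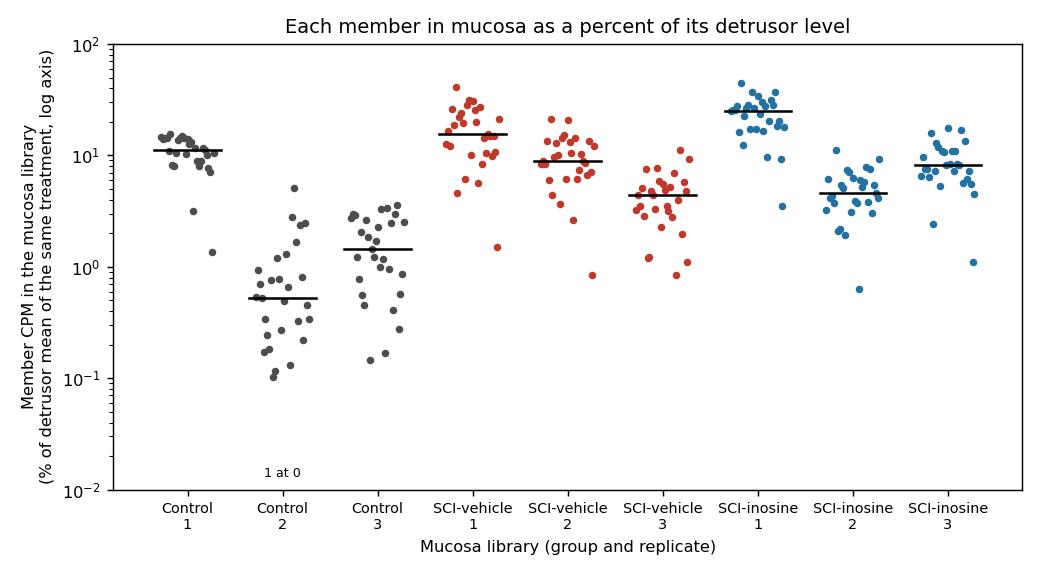
Each point is a member's CPM in a mucosa library as a percent of its mean CPM in detrusor of the same treatment, on a log axis, with members in rank order from left to right in each column; bars are medians over the 29 members, and 1 member at 0 counts in Control replicate 2 is noted. Medians run from 0.522% in Control replicate 2 to 25.1% in SCI-inosine replicate 1.

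Some members departed from the common percent of their library. The departure was taken in each of the 6 injured mucosa libraries as the log2 ratio of the member to its detrusor mean, with 0.5 CPM added to both, minus the median over the 29. It was below 0 in all 6 libraries for 4 members and above 0 in all 6 for 6 members. The libraries of a treatment share the same detrusor mean, so the 6 departures are not independent. Their SD leaves out the spread between detrusor libraries. The member ranked 7 had a mean departure of -1.47 (SD 0.37, n = 6 libraries), that ranked 18 one of -1.04 (SD 0.84) and that ranked 11 one of -0.93 (SD 0.47). The other member below the median in all 6 libraries, that ranked 25, averaged -0.57 (SD 0.21). The member ranked 7 had 21.3, 20.7 and 5.54 CPM in SCI-vehicle mucosa against 418, 528 and 451 CPM in SCI-vehicle detrusor. The member ranked 28 averaged -1.59 (SD 1.07), at counts too low to give its order. On the other side, the members ranked 6 and 15 departed by 1.01 (SD 0.22) and 0.71 (SD 0.38), and those ranked 12, 13, 19 and 9, also above the median in all 6 libraries, averaged 0.60, 0.49, 0.43 and 0.32.

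Against Control, mucosal levels of the members could not be separated from this spread. In SCI-vehicle mucosa 0 of 29 members passed, where 0% of all genes tested were called, and 0 had an unadjusted p under 0.05, where 10.2% of all genes did (edgeR). Fitted log2 fold changes were above 0 for 25 members, with a median of 0.61 beside -0.0038 for all genes, and the 95% intervals reached a median of 2.11 to either side. The most positive were the members ranked 26, 16 and 19, at 1.22 (SE 0.96), 1.22 (SE 1.01) and 1.20 (SE 1.11), and the most negative those ranked 28, 24 and 11, at -0.38 (SE 0.66), -0.34 (SE 0.69) and -0.34 (SE 1.23). The member ranked 16 had 22.9, 0.888 and 1.79 CPM in Control mucosa and 36.2, 18.7 and 6.86 CPM in SCI-vehicle mucosa, with overlap through Control replicate 1.

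In SCI-inosine mucosa against the same Control libraries, 0 of 29 members passed, where 0% of all genes were called, and 0 had an unadjusted p under 0.05, where 5.00% of all genes did (edgeR). DESeq2 called 0 in both comparisons and gave 7 and 1 members no adjusted p. The fitted value was above 0 for 28 members, with a median of 1.00 beside 0.00 for all genes and intervals that reached a median of 2.12 to either side. The most positive were the members ranked 18, 26 and 15, at 1.88 (SE 0.85), 1.53 (SE 0.96) and 1.51 (SE 1.04). The member ranked 18 had 4.29, 0.888 and 1.56 CPM in Control mucosa and 16.4, 0.614 and 7.05 CPM in SCI-inosine mucosa, so its lowest value was in an injured library. The least positive were those ranked 28, 11 and 27, at -0.11 (SE 0.66), 0.32 (SE 1.21) and 0.38 (SE 0.68).

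These mucosa values turn on single libraries. Without Control replicate 1, the median log2 fold change was 2.56 in SCI-vehicle and 3.15 in SCI-inosine, and 22 and 28 members had an unadjusted p under 0.05, where 12.4% and 6.94% of all genes did, although 0 passed after adjustment. Leaving out Control replicate 2 gave medians of 0.02 in SCI-vehicle and 0.43 in SCI-inosine, and leaving out Control replicate 3 gave 0.20 and 0.61. When the first replicate of the injured group was left out instead, the median was -0.04 in SCI-vehicle and 0.13 in SCI-inosine. The Control mucosa libraries also chose the members, through their low mean. With the percent of the 186 other detrusor genes as a covariate, an alternative added after seeing the data, the medians were -0.14 and -0.48, and 10 and 7 members were above 0. That covariate rests on genes chosen on the same Control libraries.

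Inosine against vehicle in mucosa called 0 of 29 members, where 0.00635% of all genes tested were called (1 gene), and 0 had an unadjusted p under 0.05, where 5.53% of all genes did (edgeR). DESeq2 called 0 members. Fitted values were above 0 for 25 members, with a median of 0.34, and intervals reached a median of 2.06 to either side. The highest were the members ranked 22, 18 and 24. ENSRNOG00000054314, ranked 22, had 6.47, 6.43 and 0.528 CPM in SCI-vehicle mucosa and 21.8, 5.53 and 11.9 CPM in SCI-inosine mucosa, with overlapping groups and a log2 fold change of 1.60 (SE 0.77, adjusted p = 0.882). Those ranked 18 and 24 stood at 1.56 (SE 0.83) and 0.73 (SE 0.69). The lowest were those ranked 16, 27 and 19, at -0.37 (SE 0.98), -0.32 (SE 0.65) and -0.07 (SE 1.06). The median was -0.48 without SCI-inosine replicate 1, with 4 members above 0, it was 0.96 without SCI-vehicle replicate 1, 0.73 without SCI-inosine replicate 2, 0.54 without SCI-inosine replicate 3 and 0.03 without SCI-vehicle replicate 3. It was -0.27 with the covariate described above.

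Whether inosine acted differently on the members in the 2 tissues was tested as the inosine effect in detrusor minus that in mucosa, in the model of all 18 libraries. None of the 29 members passed (0 members), where 0% of all genes were called, and 0 had an unadjusted p under 0.05, where 3.87% of all genes did (edgeR). DESeq2 called 0. The difference was above 0 for 5 members, with a median of -0.51 beside -0.01 for all genes, and the 95% intervals reached a median of 2.16 to either side. Without SCI-inosine mucosa replicate 1 the median was 0.52, with 25 members above 0, and without SCI-vehicle mucosa replicate 1 it was -1.05, with 0 above 0.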

How the data were processed

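RNA sequencing of 18 rat bladder samples, 3 in each of 6 groups, was analysed. The authors deposited the counts as whole numbers for 32754 genes, without normalization, after ribosomal RNA depletion, stranded library preparation, paired-end sequencing and summing of 2 flow cells. The submitters' processing notes name FastQC 0.11.9, MultiQC 1.13, Trim Galore 0.6.10, STAR 2.7.10a, SAMtools 1.17, featureCounts 2.0.3 of Subread and the genome build Rnor_6.0. Of the table's columns 0 were unused, and 0 entries lacked an identifier.

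Members and gene lists were chosen with earlier results of these data known. CPM used column totals. Genes that exceeded 1 CPM in 3 or more libraries (15740) were kept, and their counts were scaled by TMM and tested with the quasi-likelihood F test of edgeR 4.0.16 in R 4.3.3 (two-sided). P-values were adjusted by Benjamini-Hochberg over all genes of a comparison, with a threshold of 0.05. Comparisons within a tissue used its 9 libraries in 3 groups. Comparisons between tissues used all 18 libraries in 6 groups. Standard errors and 95% intervals came from the F statistic and the total degrees of freedom. Scripts were tested on simulated data.

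Named members were the 10 highest in Control detrusor, the 3 highest and 3 lowest fitted values in each comparison within a tissue, and those past the threshold. Members named for other reasons were chosen after their values were seen. Gene lists by symbol, marker checks, promoter motifs and sequences could not be matched to identifiers and were not used. The alternatives were DESeq2 1.42.0, its size factors, scaling by column totals, other filters, unadjusted p-values, a replicate block, covariates for the share of the other tissue, the 2 groups alone, other thresholds for membership and leaving out each library.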

Additional observations from a re-analysis of the deposited data

Results flagged for a closer look

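For the member ranked 22, ENSRNOG00000054314, every detrusor library of SCI-inosine lay below the Control mean and every mucosa library above it. The opposite signs are not particular to it, since 27 of 29 members had a fitted log2 fold change below 0 in detrusor and above 0 in mucosa for SCI-inosine against Control. The choice of members by high Control detrusor and low Control mucosa values favors these signs, and its part was not tested. The share of all genes with this pattern was not counted. In detrusor its 3 SCI-inosine libraries had a mean of 70.2 CPM, and each was below the Control mean of 117 CPM. In mucosa its 3 SCI-inosine libraries had a mean of 13.1 CPM, and each was above the Control mean of 5.12 CPM. The mucosa difference did not pass the test (log2 fold change 1.38, SE 0.76, adjusted p = 0.998 in edgeR), and the mucosa groups overlapped, since Control replicate 1 had 10.5 CPM and SCI-inosine replicate 2 had 5.53 CPM. The difference between the tissues was not tested, because the Control libraries of both tissues chose the members.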

How the results depend on the processing

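Of 194 recomputed counts of members, 159 were within 1.5 times the value given. A given 0 that stayed 0 was scored as within. The value given was 0 for every comparison within mucosa, for inosine against vehicle in detrusor and for the inosine effect between tissues. The 159 therefore say little about the comparisons that called some members. None of 85 recomputed values of the called members in detrusor changed sign. The 5 calls were kept in 38 of those 85. For SCI-vehicle against Control in detrusor, the 1 member called became 15 by unadjusted p (5.42% of all genes lower), 12 by DESeq2 (1.01% of all genes) and 8 with every gene with a count (0.309% of all genes), and 0 with column totals, the mucosa covariate or the 2 groups alone. Leaving out each library gave 0 to 1. For SCI-inosine against Control, the 4 became 18 by unadjusted p (5.85% of all genes lower), 8 by DESeq2 (0.859% of all genes), 0 with the mucosa covariate and 1 with the 2 groups alone. Leaving out each library gave 0 to 6. Both comparisons use the Control libraries that chose the members, which favors lower values after injury. Inosine against vehicle in detrusor gave 1 by unadjusted p (4.38% of all genes). The cause of these changes was not tested. Scaling by column totals, the unadjusted threshold between tissues and the unadjusted threshold with the replicate block in mucosa were added after seeing the data. DESeq2 called 26 of 29 members higher in injured detrusor than in mucosa of either group and gave the other 3 no adjusted p, and leaving out each library gave 28 to 29. The main edgeR fits called 21.7% of all genes higher in detrusor in SCI-vehicle and 19.9% in SCI-inosine. Shares of all genes called in these fits, or in the other fits without 1 library, are not given at the adjusted threshold.

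The choice of members depended on its settings. A fold of 8 gave 97 genes and of 32 gave 3, and CPM scaled by TMM gave 76. Leaving out each Control library gave 9 to 77 genes, with 77 without mucosa replicate 1, 9 without mucosa replicate 2 and 12 without mucosa replicate 3.

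With the replicate number as a block, 0 members were called in SCI-vehicle against Control in detrusor, and in mucosa 7, 15 and 2 had an unadjusted p under 0.05 for SCI-vehicle against Control, SCI-inosine against Control and inosine against vehicle, where 12.1%, 6.45% and 6.73% of all genes did. Between the tissues 29 members were called in each injured group, and the share of all genes called there with the block is not given. The deviations of same-numbered libraries correlated at -0.12 to 0.24 in detrusor (2 of 9 above 0.1), at -0.26 to 0.46 in mucosa (5 of 9), and at 0.0056 to 0.233 between detrusor and mucosa of the same treatment (5 of 9, all above 0). Differently numbered libraries of the same treatment correlated between detrusor and mucosa at -0.241 to 0.115, most of them below 0. The deviations were taken from group means, so same-numbered values above 0 by themselves push the differently numbered ones below 0. Whether same-numbered libraries of the 2 tissues came from the same rat was thus not settled. Since not every pair was above 0.1, the numbers were not taken to pair the samples, and the block is an alternative alone. The block joins equal numbers across treatments and does not test pairing by rat. Comparisons between tissues treat detrusor and mucosa as separate samples. With 3 libraries a group, precision was limited by the spread between mucosa libraries, with a median half-width of the 95% interval of 2.11 on the log2 scale for SCI-vehicle against Control, and for the member ranked 28 by counts of 3 or fewer in each SCI-vehicle mucosa library.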
